A study of Mus musculus with 48 samples.

Results

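The chaperones of the endoplasmic reticulum (ER) and genes of the unfolded protein response were followed in mPDAC, a cell line from a mouse pancreatic ductal adenocarcinoma, by 10 genes chosen by symbol: Hspa5, Hsp90b1, Calr, Canx, Pdia3, Pdia4, Pdia6, Dnajb9, Xbp1 and Herpud1. Each symbol matched 1 Ensembl gene of the 50600 in the count tables, and all 10 passed the filter on low counts that left 13889 genes tested. The labels give the cells an FVB/N x C57BL6 background and an age of 8-week-old, without saying of what, and the same for both treatments. N6L-treated cultures received the nucleolin antagonist N6L (a nucleolin inhibitor in the labels) at 50 µM for 48 h, and non-treated (NT) cultures did not. Both kinds of culture received emetine, which stops ribosomes on the mRNA, before hypotonic lysis and removal of nuclei and mitochondria by centrifugation. Part of the cytoplasmic lysate was sequenced as such, and the rest was run on a sucrose gradient whose pooled polysomal fractions were sequenced. There were 3 cultures per treatment, numbered 1, 2 and 4 (NT) and 1, 2 and 3 (N6L), and hence 12 libraries in 4 groups of 3. How much of the ER membrane and its bound polysomes each fraction kept was not analysed here.

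Proteins of the secretory pathway enter the ER as they are made and fold there with the help of chaperones and disulfide isomerases. When unfolded proteins accumulate, the sensors IRE1, PERK and ATF6 signal to the nucleus. IRE1 splices the Xbp1 mRNA so that it encodes an active transcription factor, cleaved ATF6 binds ER stress response elements (ERSE) of chaperone promoters together with the factor NF-Y, and PERK lowers translation initiation and favours the translation of ATF4. Secretory tissues such as the exocrine pancreas are known to rely heavily on this response. The gene counts used here do not separate spliced from unspliced Xbp1.

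The promoters of the genes were searched for the elements through which the response acts, to show which of them share one. The ERSE is written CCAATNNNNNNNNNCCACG, where NF-Y binds the first 5 letters and ATF6 the last 5, and the ERSE-II is written ATTGGNCCACG. Both strands of the RefSeq promoters (GRCm38.p6, 300 bases from 250 before to 50 after the transcription start) were read. The capitals mark the fixed letters of the element and 5 flanking bases are shown on each side, while the coordinates are those of the element itself. Sites are printed on the strand on which they read as the element:
Hspa5, chr2:34772025-34772043, + strand: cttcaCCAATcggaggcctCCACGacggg
Hsp90b1, chr10:86705638-86705656, - strand: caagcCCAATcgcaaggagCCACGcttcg
Hsp90b1, chr10:86705533-86705551, + strand: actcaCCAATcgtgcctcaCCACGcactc
Calr, chr8:84847075-84847093, + strand: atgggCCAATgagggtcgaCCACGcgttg
Canx, chr11:50325800-50325818, - strand: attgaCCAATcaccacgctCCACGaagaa
Pdia6, chr12:17266491-17266509, + strand: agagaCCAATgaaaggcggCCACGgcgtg
Herpud1 (ERSE-II), chr8:94386377-94386387, + strand: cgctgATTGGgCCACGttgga

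An exact ERSE thus stood in the promoters of 5 of the 10 genes (Hspa5, Hsp90b1, Calr, Canx and Pdia6) against 39 of 32851 promoters in the whole table (0.119%). An ERSE-II stood in that of Herpud1 against 12 of all promoters (0.0365%). The first base of the element lay 65 bases before the start of Hspa5, 212 and 107 before that of Hsp90b1, 162 before that of Calr, 145 before that of Canx, 98 before that of Pdia6 and 52 before that of Herpud1. In Calr and in the nearer site of Hsp90b1 the element ran against the direction of the gene. With 1 of the 10 fixed letters allowed to differ, a search added after the exact one had been seen, 8 of the 10 genes had a site, exact ones included, as did 1.5% of all promoters counted in the same way. In 4 of them a site had 1 letter changed, namely Pdia3 and Pdia4, Herpud1 beside its ERSE-II, and Hsp90b1 beside its 2 exact sites.
Pdia3, chr2:121413873-121413891, + strand, G19A: cgcagCCAATcggcggctgCCACActgcg
Pdia4, chr6:47813602-47813620, + strand, G19T: gaccaCCAATcacgggctgCCACTcggtt
Herpud1, chr8:94386411-94386429, + strand, G19A: ctcagCCAATggatggcagCCACAgagag
Hsp90b1, chr10:86705598-86705616, + strand, C18G: gcccgCCAATcggaactgtCCAGGtgcgg

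The substitutions give the letter of the element, its position counted from 1 at the 5′ end of the element, and the letter of the site. Dnajb9 and Xbp1 had neither kind of match, and the element TGACGTGG, a binding sequence of the spliced XBP1 protein (UPRE), matched 222 promoters (0.676%) and none of the 10. No 2 of the sites shown overlapped. These are matches of letters, and the binding of factors was not measured.

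The cells carried ductal keratins at high levels. The summed level of 8 ductal markers was 6520 to 10700 CPM, with Krt18 at a mean of 3130 and Krt8 at 2820 CPM in NT cytoplasm. CPM is the count scaled to the total of its library after that total was adjusted by TMM, the scaling used in the fit. Epcam, also a ductal marker, was near 0, at group means of 0.0572 to 0.151 CPM. Markers of acinar cells summed to 27.6 to 82.8 CPM, nearly all of it Cela1, with 4 of 8 at 0 in every library (Ptf1a, Cpa1, Pnlip and Amy2a5). Markers of fibroblasts, leukocytes and endothelial cells each summed to at most 5.39 CPM in any library. Totals ran from 19519911 to 44972333 counts per library, and each of the 10 genes had at least 166 counts in every library.

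In CPM per kilobase of exon, which allows genes to be set beside each other, the order of levels in NT cytoplasm ran from Herpud1, a membrane protein of ER-associated degradation, at 163 ± 64.6 (SD, n = 3), and the lectin chaperone calreticulin (Calr) at 143 ± 25.0 to Dnajb9, a co-chaperone of BiP, at 6.4 ± 2.97. Between them stood Hspa5 (BiP, the main Hsp70 of the ER) at 112 ± 51.3, Xbp1 at 74.8 ± 22.9, Hsp90b1 (GRP94, the Hsp90 of the ER) at 62.3 ± 27.2 and the disulfide isomerase Pdia3 at 45.1 ± 10.5. The isomerases Pdia6 and Pdia4 followed at 30.9 ± 10.5 and 29.1 ± 10.7, and the membrane-bound lectin chaperone calnexin (Canx) at 17.0 ± 3.9. Only Canx and Dnajb9, the last pair, had ranges that did not overlap, while the other 8 of the 9 pairs of neighbours in this order overlapped.

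**Figure D1:**
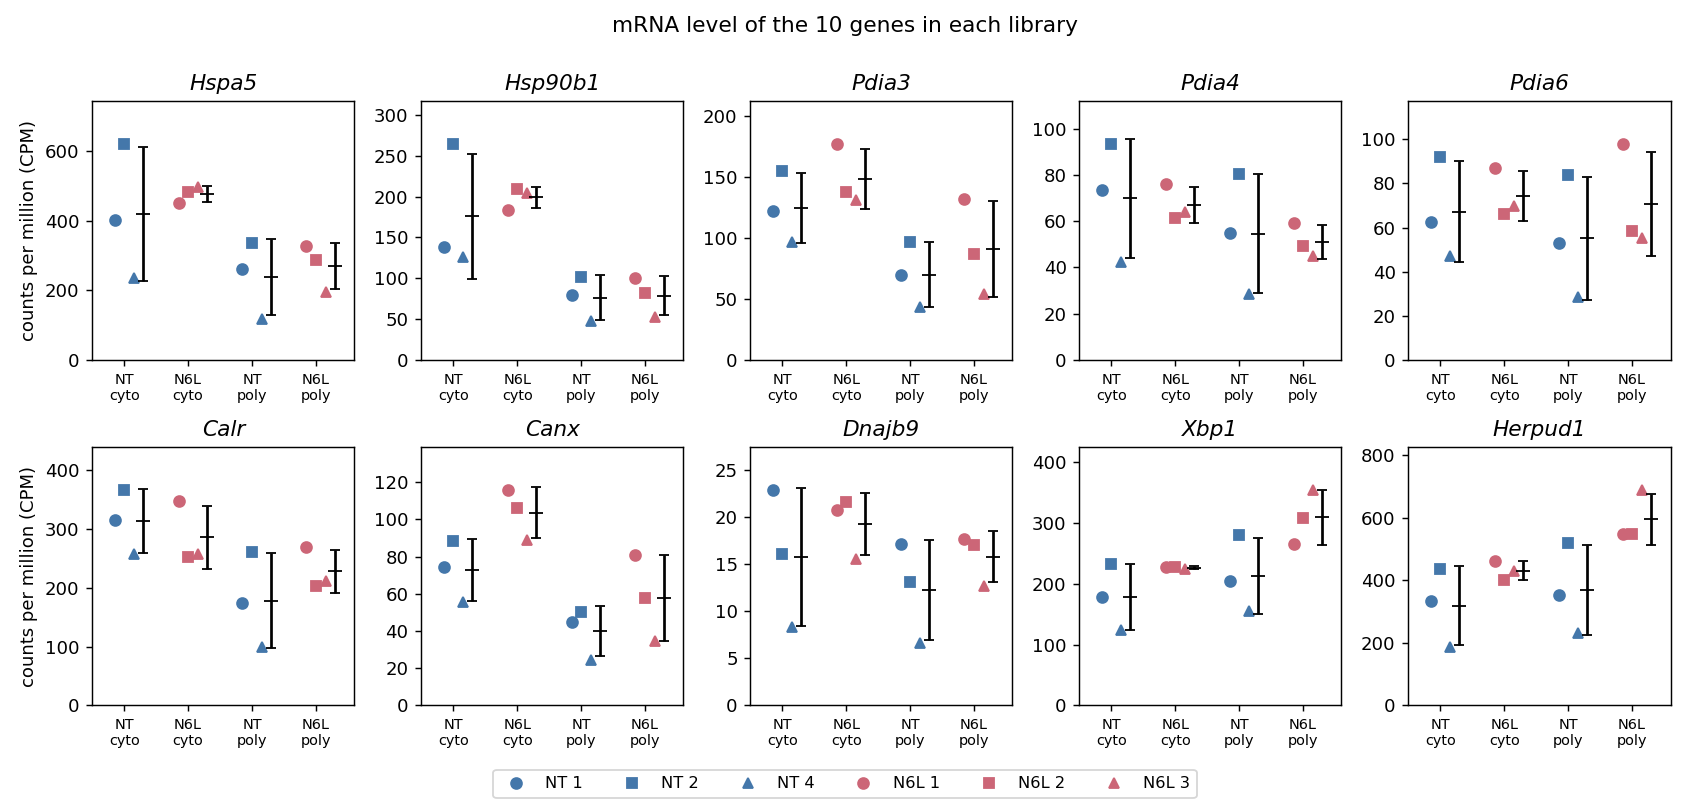
Level of each of the 10 genes in CPM (vertical axes, each starting at 0) in the 3 libraries of each group. Circles, squares and triangles are cultures 1, 2 and 4 (NT, blue) or 1, 2 and 3 (N6L, red), and the bars are the mean ± SD. NT culture 4, the blue triangle, is the lowest of the NT libraries in every panel.

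The first question was whether N6L changed the amount of these mRNAs in the cytoplasm. Hspa5, the usual readout of the response, was at 404, 621 and 236 CPM in NT cultures 1, 2 and 4 and at 452, 484 and 498 CPM in N6L cultures 1, 2 and 3. The N6L values lay close together and inside the NT range, and the log2 fold change was 0.19 (SE 0.35, 95% interval -0.56 to 0.93, FDR 0.71). Hsp90b1 was at 138, 264 and 126 CPM in NT and 184, 209 and 204 CPM in N6L cytoplasm. It behaved in the same way, with a log2 fold change of 0.18 (95% interval -0.48 to 0.83).

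Canx stood at 74.2, 88.7 and 55.4 CPM in the NT and 116, 106 and 88.8 CPM in the N6L cytoplasm. Every N6L value was above every NT value, though the closest 2 were nearly equal. Its log2 fold change of 0.51 (SE 0.30, FDR 0.204) was the highest of the 10 and did not pass the limit. Groups that do not overlap were found for 54.9% of all genes tested in this comparison.

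Herpud1 was at 333, 437 and 186 CPM in NT and 463, 401 and 428 CPM in N6L cytoplasm, a log2 fold change of 0.43 (95% interval -0.19 to 1.05). Xbp1 was at 179, 233 and 124 CPM in NT and 228, 228 and 224 CPM in N6L cytoplasm, a log2 fold change of 0.34 (95% interval -0.15 to 0.84). The N6L cultures sat between NT cultures 1 and 2, apart from N6L culture 1 for Herpud1, which was above them.

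Of the isomerases, Pdia3, the partner of calnexin and calreticulin, had a log2 fold change of 0.25, Pdia6 one of 0.14 and Pdia4 one of -0.06. Calr stood at -0.13 and Dnajb9 at 0.28. In all, 0 of the 10 genes were called in the cytoplasm by edgeR's quasi-likelihood test, with 0 at an unadjusted p under 0.05 and 0 called by DESeq2. In the same comparison 28.3% of all genes tested were called. The median of the 10 log2 fold changes was 0.22, against 0.04 over all genes. The confidence intervals reached from -0.74 to 1.14 over the 10 genes, so that a doubling was outside the interval of 7 of them and inside those of Canx, Dnajb9 and Herpud1. A library is a share of its RNA, so a change in the RNA content of the cells and a change in the number of cells cannot be told apart in these values.

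In polysomes the question was whether the share of these mRNAs among those engaged by several ribosomes changed. The paper reports that polysome peaks were strongly reduced in N6L-treated cells. A higher share of polysomal RNA is therefore not a measure of a larger amount of that mRNA on ribosomes. Herpud1 was at 353, 519 and 233 CPM in NT and at 547, 547 and 689 CPM in N6L polysomes. All 3 N6L values were above the NT values, and the log2 fold change was 0.69 (SE 0.29, 95% interval 0.07 to 1.31, FDR 0.145). Groups did not overlap for 25.6% of all genes in this comparison.

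Xbp1 was at 205, 280 and 155 CPM in NT and at 265, 308 and 355 CPM in N6L polysomes. N6L culture 1 lay below NT culture 2, and the log2 fold change was 0.54 (SE 0.23, 95% interval 0.04 to 1.03, FDR 0.158). Canx had a log2 fold change of 0.54 (FDR 0.269), with 44.9, 50.1 and 24.6 CPM in NT and 81.1, 57.6 and 34.9 CPM in N6L polysomes. Its N6L culture 3 was below NT cultures 1 and 2.

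The chaperones Hspa5 and Hsp90b1 were at log2 fold changes of 0.18 and 0.04 in polysomes. Pdia3, Pdia6, Calr and Dnajb9 lay between 0.36 and 0.38, and Pdia4 at -0.10. Again 0 of the 10 genes were called by edgeR (2 at an unadjusted p under 0.05, Xbp1 and Herpud1, and 0 called by DESeq2), against 9.67% of all genes. The median was 0.37, against 0.0 over all genes.

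**Figure D2:**
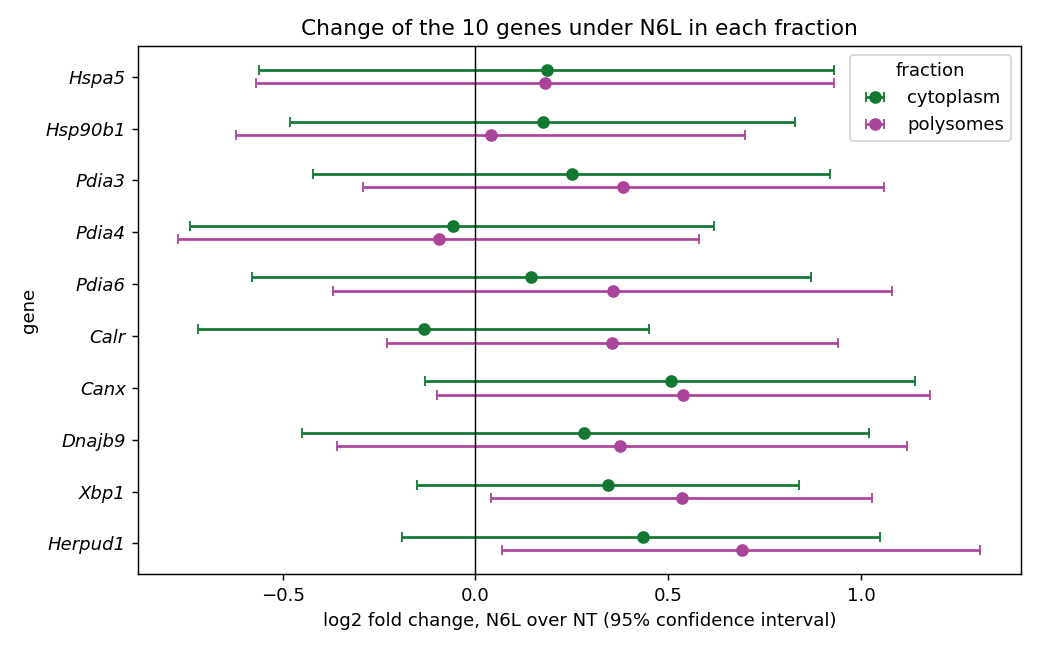
Log2 fold change of N6L over NT for each gene (horizontal axis) in the cytoplasm (green) and in polysomes (purple). Points are the fitted values and bars the 95% confidence intervals, which include 0 for every gene in the cytoplasm and for all but Xbp1 and Herpud1 in polysomes.

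These values depended on NT cultures 2 and 4 of the control. NT culture 4 was the lowest of the NT cultures for 10 of the 10 genes in the cytoplasm and for 10 of 10 in polysomes, and NT culture 2 was the highest for 9 of 10 in each fraction, the exception being Dnajb9, highest in NT culture 1. Being lowest in NT culture 4 in both fractions was seen in 28.1% of all genes tested. NT culture 2 exceeded NT culture 4 by 1.42-fold (Calr) to 2.63-fold (Hspa5) in the cytoplasm, with a median of 1.94, and by 1.81 to 2.94-fold in polysomes, with a median of 2.23.

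Each gene's log2 level relative to its group mean shows the same. The median over the 10 genes was -0.47 in the cytoplasm and -0.68 in polysomes of NT culture 4, and 0.46 and 0.56 in those of NT culture 2. Over all genes tested it was -0.02 and 0.01 in NT culture 4. The medians of the other ER lists were closer to 0. The sensors and transcription factors of the response stood at -0.20 and -0.26 in NT culture 4, the other chaperones and foldases at -0.05 and -0.15, the genes of ER-associated degradation at -0.03 and -0.11 and those of translocation and N-glycosylation at 0.08 and -0.03. N6L cytoplasm showed no such spread for Xbp1 and Hspa5, which deviated by at most 0.02 and 0.08 from the group mean. Others of the 10 spread more there, with Pdia3 at 0.27 in N6L culture 1 and Dnajb9 at -0.30 in N6L culture 3. Calr reached 0.30 in N6L culture 1, against -0.27 in the cytoplasm of NT culture 4. In N6L polysomes culture 1 was the highest and culture 3 the lowest for Hspa5 (0.30 and -0.43), Hsp90b1, Pdia3 and Canx, and the reverse held for Xbp1 (-0.21 and 0.21).

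Without NT culture 4 the median log2 fold change under N6L was -0.05 in the cytoplasm and 0.08 in polysomes, with 4 and 7 of the 10 genes above 0. Without NT culture 1 it was 0.2 and 0.36, with 8 and 9 above 0. Without NT culture 2 it was 0.51 and 0.72, with 9 and 10 above 0. Herpud1 (log2 1.02, FDR 0.0417) and Xbp1 (log2 0.78, FDR 0.0476) were then called in polysomes, with FDRs close to the limit. That fit called 582 of 14111 genes higher and 374 lower in polysomes. In the fit of all 12 libraries 8 and 9 of the 10 were above 0. In the cytoplasm the sign of the median thus changed when NT culture 4 was left out. As NT culture 4 was the lowest control for all 10 genes, a lower median was bound to follow.

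**Figure D3:**
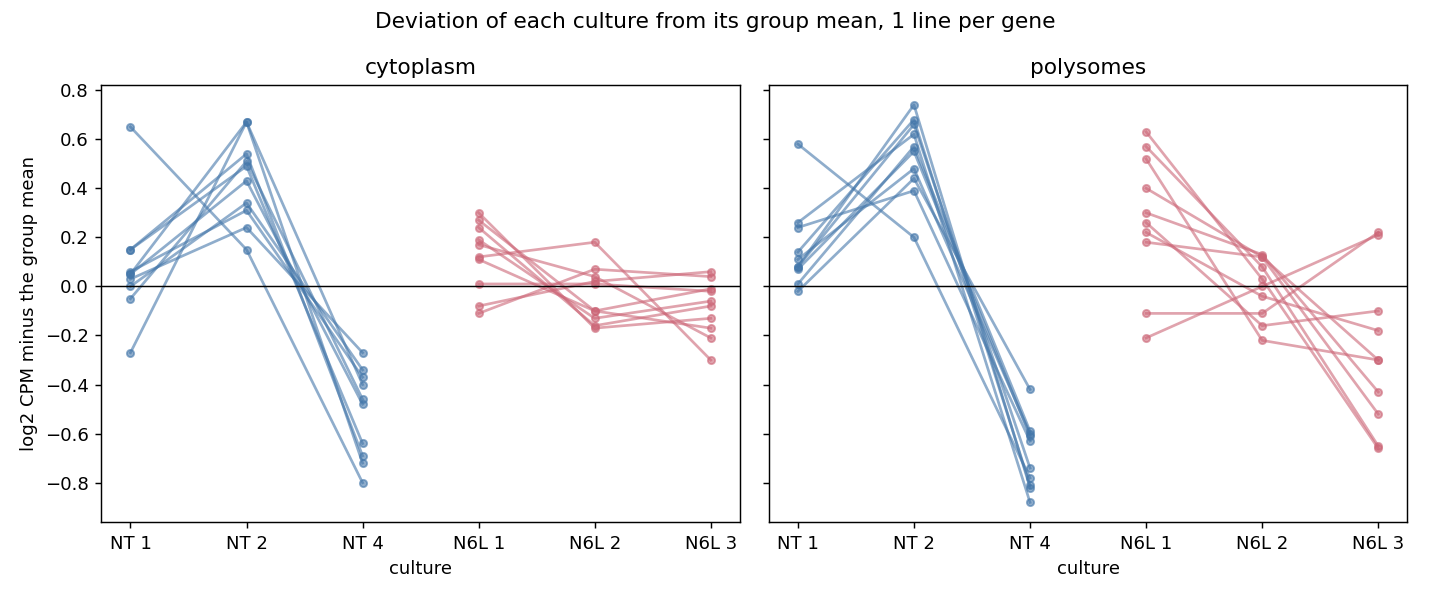
Log2 CPM of each culture minus the mean of its group (vertical axis), 1 line per gene, in the cytoplasm (left) and in polysomes (right), NT in blue and N6L in red. All lines fall below 0 at NT culture 4 and lie above 0 at NT culture 2.

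Over the 12 libraries the genes whose log2 CPM ran most like that of Hspa5 were Atp2a2, which encodes the SERCA2 pump that fills the ER with calcium (Pearson r = 0.96), Alg2, a mannosyltransferase of the N-glycan precursor (0.95), P4ha1, a collagen prolyl hydroxylase of the ER (0.95), Soat1, the cholesterol acyltransferase of the ER membrane (0.94), and Gfpt1, the first enzyme of the hexosamine pathway (0.94). Of the members, Hsp90b1 (0.93), Pdia3 (0.92), Canx (0.92) and Pdia4 (0.90) followed, at ranks 9, 13, 15 and 26 among all genes. Calr (0.86), Pdia6 (0.82) and Dnajb9 (0.76) were lower. Herpud1 and Xbp1 were far down the ranks (r = 0.32 and 0.21), but their r rose to 0.81 and 0.76 once each group was centred on its own mean. These points share libraries and groups, are not independent, and are given as a description.

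The next comparison set polysomes against cytoplasm within a treatment, which asks how much of each mRNA was engaged by several ribosomes relative to other mRNAs. The direction differed among the 10 genes. Hsp90b1, Hspa5, Canx, Pdia3, Calr, Pdia4 and Dnajb9 had a log2 polysome-to-cytoplasm ratio below 0 in all 6 cultures, which 22.6% of all genes tested had. Xbp1 and Herpud1 had a ratio above 0 in all 6, which 24.1% of all genes had. Pdia6 was below 0 in 5 of 6.

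Hsp90b1 had log2 ratios of -0.80, -1.38 and -1.38 in NT cultures 1, 2 and 4 and of -0.88, -1.34 and -1.94 in N6L cultures 1, 2 and 3. Those of Hspa5 were -0.63, -0.89 and -0.99 in NT and -0.47, -0.75 and -1.34 in N6L cultures. In both genes N6L culture 3 had the lowest ratio and the treatments overlapped.

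Canx had log2 ratios of -0.72, -0.82 and -1.17 in NT and -0.51, -0.88 and -1.35 in N6L cultures. Pdia3 had -0.82, -0.68 and -1.16 in NT and -0.42, -0.66 and -1.27 in N6L cultures. Calr had -0.85, -0.49 and -1.37 in NT and -0.36, -0.31 and -0.29 in N6L cultures, the only one of the 10 whose treatments did not overlap. The ratios of the treatments did not overlap for 29.7% of all genes tested. Pdia4 and Dnajb9 were closer to 0, with means of -0.40 and -0.35 in NT and -0.39 and -0.29 in N6L cultures.

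Xbp1 had ratios of 0.19, 0.27 and 0.32 in NT and 0.22, 0.43 and 0.66 in N6L cultures, and Herpud1 0.08, 0.25 and 0.32 in NT and 0.24, 0.45 and 0.69 in N6L cultures. Here N6L culture 3 had the highest ratio.

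**Figure D4:**
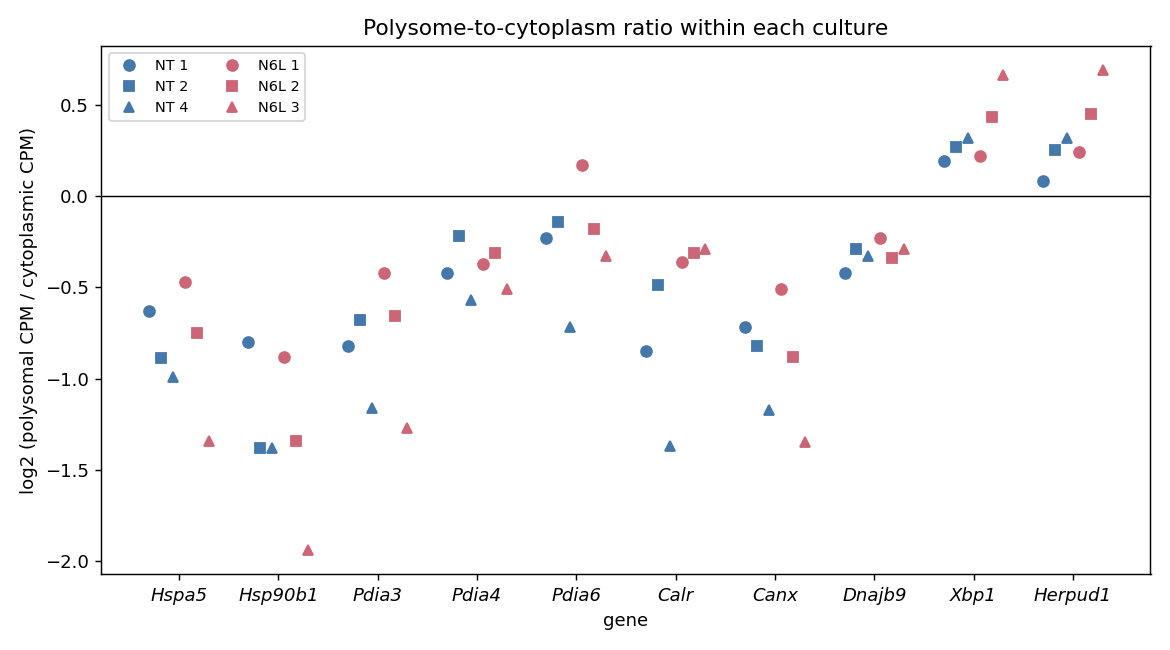
Log2 ratio of polysomal to cytoplasmic CPM (vertical axis) for each gene in each of the 6 cultures, NT in blue and N6L in red. The chaperones and isomerases lie below 0, except Pdia6 in N6L culture 1, and Xbp1 and Herpud1 lie above 0.

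In NT cells the fitted log2 differences, polysomes minus cytoplasm, were -1.20 for Hsp90b1 (SE 0.31, FDR 0.129), -0.87 for Canx (FDR 0.237), -0.84 for Pdia3 (FDR 0.282), -0.82 for Hspa5 (FDR 0.338) and -0.81 for Calr (FDR 0.23). By edgeR 0 of the 10 were called (5 at an unadjusted p under 0.05, and 1, Hsp90b1, called by DESeq2 at an adjusted p of 0.0151), and 0.209% of all genes were called, all of them lower in polysomes (0.209%). Since both fractions of a culture come from one lysate, the culture was also fitted as a block. With it 5 of the 10 were called, each lower in polysomes: Hsp90b1 (log2 -1.19, FDR 0.0381), Calr (-0.90, FDR 0.0393), Canx (-0.90, FDR 0.0441), Pdia3 (-0.89, FDR 0.045) and Hspa5 (-0.83, FDR 0.045). The same fit called 1.46% of all genes.

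In N6L-treated cells Hsp90b1 fell by 1.34 on the log2 scale from cytoplasm to polysomes (SE 0.31, 95% interval -2.01 to -0.67, FDR 0.0072) and Canx by 0.84 (SE 0.30, FDR 0.0381). They were the 2 members called, both lower, where 39.0% of all genes were called and 20.6% were called lower. Hspa5 was at -0.82 (FDR 0.0762) and Pdia3 at -0.70 (FDR 0.0871), while Xbp1 and Herpud1 were at 0.45 (FDR 0.137) and 0.47 (FDR 0.209). With the culture as a block 7 of the 10 were called, against 53.7% of all genes: Hsp90b1, Canx, Hspa5, Pdia3 and Pdia4 were lower, and Herpud1 (log2 0.46, FDR 0.00811) and Xbp1 (log2 0.44, FDR 0.00919) were higher. Without the block no member was called when N6L culture 2 was left out (Hsp90b1 FDR 0.0571, Canx FDR 0.161). None was called without N6L culture 3 either (FDR 0.0613 and 0.149). Only Hsp90b1 was called without NT culture 1, and 5 members without NT culture 4, Xbp1 and Herpud1 among them as higher. Without N6L culture 2 all genes gave 359 higher and 794 lower of 14019, and without N6L culture 3 436 and 1217 of 14088. Without NT culture 1 the calls were 2158 and 2544 of 14084, and without NT culture 4 2964 and 2897 of 14032.

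Transcript length and GC content also differed between the genes. Xbp1 and Herpud1 have the highest GC content of the 10 (53.0% each) and the shortest transcripts (2129 and 1952 bases), while Hsp90b1, Canx and Dnajb9 have the lowest GC content (42.05, 42.2 and 40.6%). Dnajb9 was among the closest to 0 of the 7 genes below it. Calr, with a short transcript of 2184 bases, was at -0.81 in NT cells. Whether length or GC content set the ratios was not tested. The medians over the genes tested were 3102 bases and 49.8%. With an offset per library for both, Hsp90b1 (log2 -1.03, FDR 0.0214) was still called in N6L cells and Canx (log2 -0.33, FDR 0.32) was not. With the offset and with the culture as a block, Xbp1 and Herpud1 were at 0.06 and 0.00 in NT and at -0.01 and -0.02 in N6L cells, and neither was called. Of the chaperones and isomerases 6 were called lower in each treatment. In NT cells 6 of the 10 were called against 4.55% of all genes (Calr -1.06, Hsp90b1 -0.97, Pdia3 -0.91, Hspa5 -0.73, Canx -0.62 and Pdia4 -0.48). In N6L cells the same genes were called against 35.4% of all genes (Hsp90b1 -1.04, Pdia3 -0.79, Calr -0.62, Hspa5 -0.58, Pdia4 -0.52 and Canx -0.34).

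The difference between the treatments in polysome loading, taken as the polysome-to-cytoplasm difference in N6L minus that in NT cells, was called for 0 of the 10 genes, as for 0.0% of all genes (0 by edgeR and 0 by DESeq2, with 1074 and 1233 genes at an unadjusted p under 0.05, none of them a member by edgeR). The values ran from -0.13 for Hsp90b1 to 0.49 for Calr, with a median of 0.11 and intervals as wide as -1.07 to 1.32. With the culture as a block Calr was at 0.58 (unadjusted p = 0.0224, FDR 0.2). For Hspa5 the difference was -0.00 (95% interval -1.06 to 1.05).

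Around these 10 genes, the other genes of ER protein folding and its control were counted in lists. Of 23 sensors, transcription factors and PERK-branch genes, 6 rose and 1 fell in the cytoplasm under N6L, and 4 rose and 0 fell in polysomes. Of all genes tested, 14.5% were called higher and 13.8% lower in the cytoplasm, and 6.01% higher and 3.66% lower in polysomes. The genes named from each list are those of largest change among the called genes whose groups did not overlap. Atf3, a stress-induced transcription factor, rose from 212 ± 79.6 to 575 ± 84.3 CPM in the cytoplasm (log2 1.44, FDR 0.00465) and by 1.52 in polysomes (FDR 0.00769). Eif2ak3, which encodes the sensor PERK, rose from 12.9 ± 4.09 to 28.0 ± 4.97 CPM in the cytoplasm (log2 1.12, FDR 0.00762). Creb3l2, an ER-bound transcription factor related to ATF6, rose by 1.14 in the cytoplasm (FDR 0.0024) and by 0.84 in polysomes (FDR 0.0203). Its relative Creb3l3 rose by 0.73 in the cytoplasm (FDR 0.02) and by 0.95 in polysomes (FDR 0.0131). Creb3l1 rose by 1.37 in polysomes (FDR 0.0131), from only 0.597 ± 0.123 CPM, and was at 0.61 in the cytoplasm (FDR 0.118). Trib3, a pseudokinase induced by ATF4, fell from 510 ± 81.8 to 264 ± 33.3 CPM in the cytoplasm (log2 -0.95, FDR 0.00437). Atf4 itself was at a log2 fold change of 0.01 in the cytoplasm and 0.30 in polysomes, and Ddit3, which encodes CHOP, at -0.46 and -0.20, none of them called. The median of the list was 0.04 in the cytoplasm and 0.16 in polysomes, and that of all genes 0.04 and 0.0. Over the alternatives 2 to 7 of its genes rose in the cytoplasm and 0 to 5 in polysomes, while 1 to 4 fell in the cytoplasm and 0 to 1 in polysomes.

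Of 44 other ER chaperones and foldases tested, 1 rose and 6 fell in the cytoplasm, with a median log2 fold change of -0.15, beside the 14.5% and 13.8% of all genes. Over the alternatives 0 to 2 rose and 1 to 11 fell. Manf, a secreted ER stress-responsive factor, fell from 200 ± 21.1 to 132 ± 7.47 CPM (log2 -0.60, FDR 0.0118), Cnpy2 from 79.4 ± 4.94 to 44.7 ± 1.83 CPM (log2 -0.83, FDR 0.00548), and the prolyl isomerase gene Fkbp2 by 0.75 (FDR 0.0361). Its relative Fkbp14, a partner of collagen folding, rose from 5.83 ± 1.15 to 11.6 ± 0.673 CPM (log2 0.99, FDR 0.00886). In polysomes 2 rose, Fkbp14 (log2 1.04, FDR 0.0157) and Sdf2 (log2 0.52, FDR 0.0309), and 0 fell, with 0 to 4 and 0 to 1 over the alternatives.

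Of 37 genes of ER-associated degradation, 0 rose and 6 fell in the cytoplasm, and 0 were called in polysomes. Beside this list and the next stand 14.5% of all genes called higher and 13.8% lower in the cytoplasm, and 6.01% and 3.66% in polysomes. Among the 6 were Ubl4a (log2 -0.80, FDR 0.00928), Rnf5, an E3 ligase of the ER membrane (-0.77, FDR 0.00559), and the E2 enzyme gene Ube2j2 (-0.74, FDR 0.0104). Over the alternatives 0 to 5 rose and 3 to 13 fell in the cytoplasm, and 0 to 3 rose and 0 to 6 fell in polysomes. The 3 and 6 were with the offset for length and GC content, which called 1339 higher and 1354 lower of 13889 genes in polysomes. Of 34 tested genes of translocation and N-glycosylation, 0 rose and 6 fell in the cytoplasm, with 0 to 3 and 3 to 10 over the alternatives. Krtcap2, a subunit of the oligosaccharyltransferase, fell from 371 ± 57.7 to 168 ± 10.6 CPM (log2 -1.15, FDR 0.00107), Srp19 of the signal recognition particle by 0.90 (FDR 0.00199) and Ssr4, a translocon-associated subunit, by 0.81 (FDR 0.00259). Srp19 was also the 1 gene of this list lower in polysomes (log2 -0.79, FDR 0.00722). With the offset for length and GC content the genes lower in the cytoplasm numbered 9, 11 and 7 in these lists of chaperones, degradation and translocation. The same fit called 2047 of 13889 genes lower there.

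**Figure D5:**
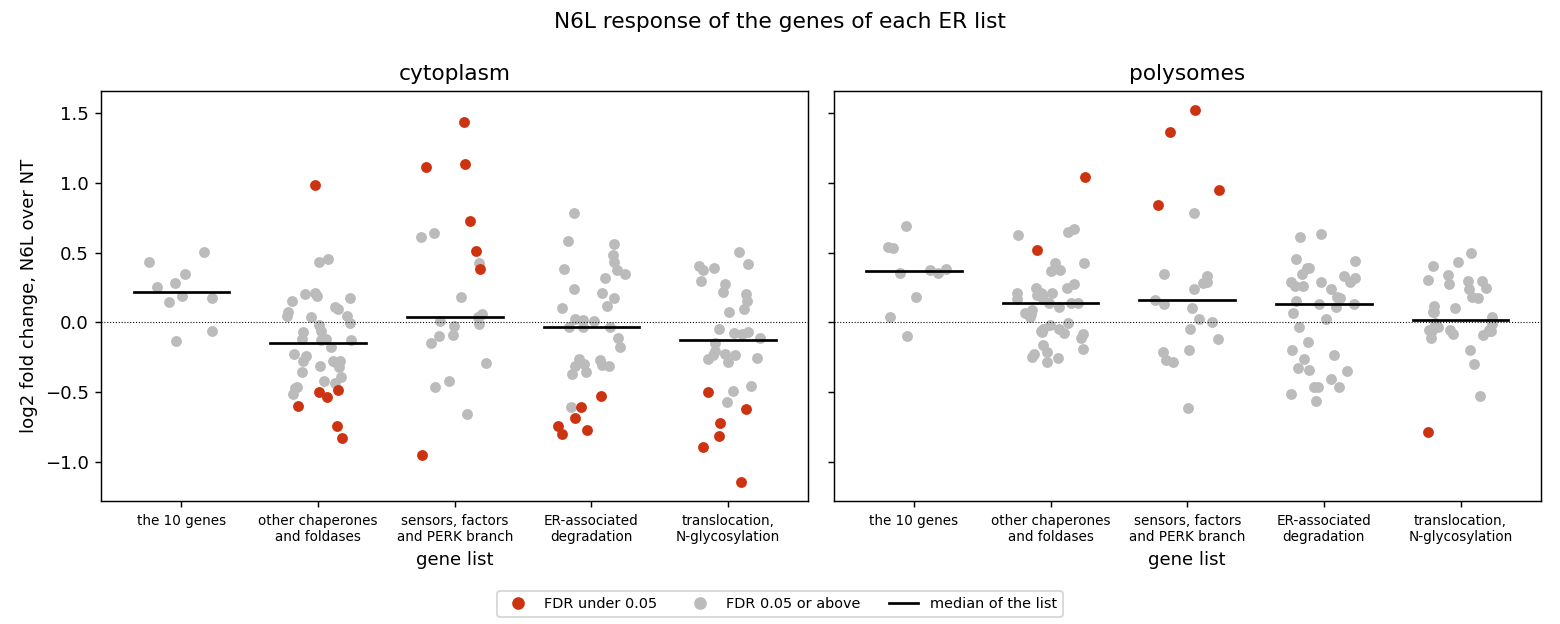
Log2 fold change of N6L over NT (vertical axis) for the genes of 5 lists in the cytoplasm (left) and in polysomes (right). Each point is a gene, red where the FDR was under 0.05 and grey otherwise, and the black line is the median of the list. None of the 10 genes of the first list is red.

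Between the fractions of NT cells, 2 of the other chaperones were lower in polysomes, the thioredoxin-related Tmx3 (log2 -1.62, FDR 0.0214) and Ganab, the catalytic subunit of glucosidase II (-0.79, FDR 0.0381), and so was Magt1 of the oligosaccharyltransferase (-1.32, FDR 0.0214). Of all genes tested 0.209% were called in that comparison, all of them lower in polysomes. The lack of a higher gene in these lists is thus shared by all genes. Between the fractions of N6L cells the calls went both ways, as did those of all genes, of which 39.0% were called, 18.4% higher and 20.6% lower in polysomes. Of the other chaperones 11 were higher in polysomes, among them Selenom (log2 1.46, FDR 0.00738), Ppib, the cyclophilin B of the ER (0.83, FDR 0.00427), and Cnpy2 (0.83, FDR 0.00556). The list also held 7 lower genes, among them Uggt1, the folding sensor of the calnexin cycle (-1.0, FDR 0.00427), Tmx3 (-0.97, FDR 0.0106) and Dnajc1 (-0.91, FDR 0.00615).

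Of the translocation genes 10 were higher and 8 lower in polysomes of N6L cells. The small subunits Ost4 (log2 1.05, FDR 0.00459), Sec61b (1.03, FDR 0.00675) and Ssr4 (0.95, FDR 0.00427) were among the first, and Sec63 (-1.26, FDR 0.0043), Magt1 (-1.15, FDR 0.00427) and Sec62 (-1.06, FDR 0.006) the second. In the degradation list 9 were higher, among them Ubxn6 (0.96, FDR 0.00789), Tmub1 (0.91, FDR 0.00689) and Get4 (0.84, FDR 0.00508), and 6 lower, among them Edem3 (-1.28, FDR 0.00648), Sel1l (-1.23, FDR 0.00796) and March6 (-0.88, FDR 0.00855). Of the sensors and factors 5 were higher, among them Creb3 (0.75, FDR 0.0103), Atf4 (0.63, FDR 0.00987) and Trib3 (0.59, FDR 0.026), and 4 lower, among them Mbtps2 (-1.17, FDR 0.00711), Atf6 (-0.76, FDR 0.0222) and Creb3l2 (-0.74, FDR 0.0124). With the offset for length and GC content 6 of the chaperones were higher and 4 lower, 9 and 7 of the translocation genes, 4 and 5 of the degradation genes, and 0 and 1 of the sensors and factors. That fit called 1239 higher and 1438 lower of 13889 genes. In the difference of loading between the treatments 0 genes of any of these lists were called.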

How the data were processed

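Polyadenylated RNA of the cytoplasmic and polysomal fractions of 6 cultures was sequenced by the authors with a strand-specific kit, and the reads were aligned with STAR and counted per gene with HTSeq 0.5.3 on mm10, as the submitters' processing notes list. The deposited values are raw counts per Ensembl gene, 4 technical replicates per library, which were summed here since a chi-square of their counts gave 1.018 to 1.042 per degree of freedom, against 6.67 to 55.0 between cultures. The authors' annotation and counting settings (strand, reads that map to several places) were not given in the sources used here. For 3 technical replicates of N6L culture 2 cytoplasm title and description name different cultures, and they were kept with the culture of the title. Their counts matched that culture, with a chi-square of 1.013 to 1.04 per degree of freedom against its replicate a. Against N6L culture 1 it was 11.2 to 11.4.

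Counts were filtered (filterByExpr), scaled by TMM and fitted in edgeR 4.0.16 (R 4.3.3) with 1 mean per fraction and treatment, and FDR is the Benjamini-Hochberg adjusted p over all 13889 genes (limit 0.05). The common biological coefficient of variation was 0.197. The tests rest on the spread between cultures, whose independence the labels do not state beyond their numbers. Log2 CPM used a prior count of 2, and intervals are t intervals at 95% from the fit. The fit was tried on simulated counts drawn independently for each library, so that trial does not cover the pairing of the fractions. Cytoplasm and polysomes of a culture come from one lysate and are therefore paired. The 2 libraries of a culture deviated together from their group means, with r of 0.364, 0.452 and 0.645 for the NT and 0.037, 0.199 and 0.229 for the N6L cultures. Alternatives were other scalings and filters, DESeq2 1.42.0, each culture left out, blocks, offsets for transcript length and GC content, and fits of the 6 libraries compared. Symbols, coordinates and transcripts are from GENCODE vM21, and promoters from RefSeq (GRCm38.p6), with all 10 genes matched.

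The members and lists were chosen with earlier results of these data known. All 10 members are described. From the other lists up to 3 genes per direction and comparison are named, those with the largest change among called genes whose groups do not overlap. Ddit3 and Atf4 in the cytoplasm were added after their values were seen. So were Creb3l2 in polysomes and Creb3l1 and Creb3l3 in the cytoplasm. Protein sequences were not analysed here.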

Additional observations from a re-analysis of the deposited data

How the results depend on the processing

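Under N6L in the cytoplasm 0 members were called in most settings, and 1 (Canx) with no filter on low counts (FDR 0.0355) and with only the 6 libraries compared (FDR 0.0491). There no filter called 2631 higher and 1772 lower of 25915 genes, and the 6 libraries 2803 and 2863 of 13426. In polysomes 1 (Herpud1) was called with no filter, beside 1041 higher and 686 lower of all genes. Leaving out each culture gave 0 each time in the cytoplasm and 0 to 2 in polysomes, the 2 without NT replicate 2. For polysomes against cytoplasm in NT cells the 0 became 5 with no filter, 1 with DESeq2, 5 with the replicate block and 6 with the replicate block and the offset, and it was 0 each time a culture was left out. In N6L cells the 2 became 4 with no filter, 3 with only the 6 libraries compared, 1 with the offset alone, 7 with the replicate block and 6 with the replicate block and the offset, and it ran from 0 to 5 when a culture was left out. The calls over all genes were as follows, higher and then lower in polysomes. In NT cells no filter gave 37 and 610 of 25915, and DESeq2 13 and 268 of 13889. In N6L cells no filter gave 2294 and 3090 of 25915. There the 6 libraries compared gave 1965 and 2502 of 13467, and the offset alone 1239 and 1438 of 13889. With no filter the SE of Hsp90b1 in NT cells was 0.196, against 0.312 with it. The difference of loading had 0 members called in every setting, the replicate block included. The causes were not tested. No member that was called in the fit of all libraries reversed its sign. Scaling by library size alone moved the median of all genes in the cytoplasm from 0.04 to 0.19. The culture number shared between NT and N6L cultures 1 and 2 is only a number (correlations of deviations 0.228 and 0.045 in the cytoplasm, 0.296 and 0.008 in polysomes), and as a block it called 0 members in either fraction. With 3 cultures per group, standard errors of 0.23 to 0.35 limit what could be seen.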

Other observations

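Among all genes of the promoter table, 37 held an exact ERSE and 17 of these were tested, of which 10 were in the ER lists. Besides the 5 members, those were Creld2 and Dnajc3, ER foldase and co-chaperone, Ero1b (Ero1lb in the annotation used), an ER oxidase that serves the disulfide isomerases, and Derl3 and Syvn1 of ER-associated degradation. Derl3 had the largest deviation of NT culture 4 among the 17, at -2.10 on the log2 scale in the cytoplasm and -2.13 in polysomes, at a low level (2.5, 4.09 and 0.30 CPM in the cytoplasm of NT cultures 1, 2 and 4). Ero1b was at -0.50 and -1.19, Creld2 at -0.46 and -0.60, Syvn1 at -0.26 and -0.37 and Dnajc3 at -0.23 and -0.53. In all, 13 of the 17 genes lay below the NT mean in both fractions of NT culture 4, and 8 of the 13 are no members. The same held for 39.9% of all genes tested. The medians of the 17 were -0.35 and -0.60. The 17 include the 5 members, whose low values in NT culture 4 had already been seen, so these medians partly repeat them. Under N6L the medians of the 17 were 0.17 in the cytoplasm and 0.23 in polysomes, with 2 and 0 called, where 28.3% and 9.67% of all genes were. Neither of the 2, Acacb (log2 1.53, FDR 0.0449) and Spats2l (log2 0.67, FDR 0.0245), is in an ER list. Between the fractions of N6L cells 6 of the 17 were called, where 39.0% of all genes were. Hsp90b1, Canx, Hnrnpa3, Spats2l and Dnajc3, which encodes the co-chaperone p58IPK (log2 -0.84, FDR 0.0266), were lower in polysomes, and 1700122E12Rik was higher. The genes were grouped by letters in their promoters, and no test was made of the group.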
